A study of Mus musculus with 24 samples.

Results

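The 6 transcripts described here, Lyz1, Defa24, Mmp7, Ang4, Itln1 and Pla2g2a, encode secreted products of the small intestinal Paneth cell. They were chosen by gene symbol as Paneth cell products that appear in colon tumors, so their difference between tumor and normal tissue had already been used in the choice and is given as a description, with no test. All 6 symbols were found among the 24346 symbols of each expression table, and all 6 were among the 13799 genes that reached 1 FPKM in at least 4 of the 24 libraries. FPKM counts sequenced fragments, corrected for transcript length and for the size of the library, so that levels of different genes can be set side by side.

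The libraries came from colorectal tissue of mice treated with AOM/DSS, the carcinogen azoxymethane followed by dextran sulfate sodium, a polymer that injures the colonic epithelium. Every library, normal tissue included, came from a treated animal. Samples annotated with the genotype c-MAF_KO fell into 3 title groups, here called KO-8-homo, KO-8-hetero and KO-1-hetero, with 3 tumor libraries in each. WT samples fell into WT-young, with 4 tumors, and WT-old, with 1. Normal tissue gave 2 libraries in every group. The labels give neither the meaning of the leading numbers 1 and 8, nor the strain, sex, age in weeks, Cre driver or allele design, and do not tie samples to animals. The labelled gene itself, Maf, measured 2.62 to 7.4 FPKM in the 9 tumors labelled KO and 1.63 to 2.26 FPKM in the 4 WT-young tumors. The gene-level value was thus higher, not lower, in every tumor labelled KO than in every WT-young tumor, and KO below means only the label.

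Paneth cells sit at the base of small intestinal crypts, between the stem cells, and release granules of antimicrobial proteins while also supplying Wnt and Notch ligands. The healthy mouse colon has few or none of them, and its crypt base holds secretory cells of another kind. Sox9 and high Wnt signalling are needed for Paneth cells to form, and Paneth-type products are known from tumors in which the Wnt pathway is active. In that granule, lysozyme (Lyz1) cleaves bacterial cell walls, alpha-defensins such as Defa24 disrupt bacterial membranes, and matrilysin (Mmp7) cuts the defensin precursors into active peptides. Ang4 is a ribonuclease of the angiogenin family with antimicrobial activity, Itln1 is a lectin that binds microbial sugars, and Pla2g2a is a secreted phospholipase that attacks bacterial membranes.

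Defa24 lies on chromosome 8 at 21734494 to 21735471 of GRCm38.p6, the assembly that mm10 is built from. It belongs to a large family of near-identical genes, and reads may be shared among them. Of the 370 stretches of 50 bases in the Defa24 transcript of the GENCODE M21 annotation, 104 (28.1%) also occur in transcripts of 9 other genes, 98 of them in Defa30. Defa30 lies on the same chromosome at 21134650 to 21135598 and stands in the expression tables under its synonym Gm15284. The coding sequences of both genes, from GENCODE M21, are printed because the tumor signal of one cannot be fully parted from that of the other. Capitals mark the 4 of 282 bases that differ, an identity of 98.6%.
Defa24: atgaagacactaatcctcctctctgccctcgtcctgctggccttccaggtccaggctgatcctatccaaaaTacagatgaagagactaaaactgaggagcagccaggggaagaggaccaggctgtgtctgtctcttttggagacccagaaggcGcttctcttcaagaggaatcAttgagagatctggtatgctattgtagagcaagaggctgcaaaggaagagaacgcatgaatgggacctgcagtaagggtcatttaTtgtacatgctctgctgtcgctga
Defa30 (Gm15284): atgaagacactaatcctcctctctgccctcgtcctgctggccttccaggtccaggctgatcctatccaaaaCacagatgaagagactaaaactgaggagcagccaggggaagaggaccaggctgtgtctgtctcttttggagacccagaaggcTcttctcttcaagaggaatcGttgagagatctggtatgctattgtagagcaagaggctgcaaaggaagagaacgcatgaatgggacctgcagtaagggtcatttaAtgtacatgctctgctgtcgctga

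Lyz1, the lysozyme of Paneth cells, lies on chromosome 10 at 117287795 to 117292868, next to Lyz2, the lysozyme of macrophages and other myeloid cells, at 117277541 to 117282272. Their coding sequences share 425 of 447 bases (95.1%), and 195 of 1214 stretches of 50 bases in the Lyz1 transcript (16.1%) occur in Lyz2 as well. Coding bases 1 to 240 of each are printed, with the 17 of the 22 differing bases that fall there in capitals, since the 2 genes are the pair by which epithelial and myeloid lysozyme are told apart in these data.
Lyz1: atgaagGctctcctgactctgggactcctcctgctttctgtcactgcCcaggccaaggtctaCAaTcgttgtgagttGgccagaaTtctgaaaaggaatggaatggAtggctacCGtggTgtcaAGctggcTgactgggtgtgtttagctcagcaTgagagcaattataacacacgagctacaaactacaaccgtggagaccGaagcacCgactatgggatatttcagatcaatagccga
Lyz2: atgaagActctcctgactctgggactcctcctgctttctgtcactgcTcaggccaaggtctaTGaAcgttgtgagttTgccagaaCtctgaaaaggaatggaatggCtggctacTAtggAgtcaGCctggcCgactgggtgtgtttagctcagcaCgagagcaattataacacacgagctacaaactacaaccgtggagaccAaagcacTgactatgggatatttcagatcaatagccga

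The other members had little or no such overlap. No 50-base stretch of the Mmp7 or Pla2g2a transcripts occurred in another gene, against 31 of 660 for Ang4 (4.7%) and 11 of 1132 for Itln1 (0.972%). Mmp7 lies on chromosome 9 at 7692090 to 7699585, Ang4 on chromosome 14 at 51763892 to 51773590, and Itln1 on chromosome 1 at 171518123 to 171535325. Pla2g2a lies on chromosome 4 at 138831857 to 138835189. The RefSeq annotation of this assembly lists it as a transcribed pseudogene. The gene, also known as Mom1, carries a frameshift in some laboratory strains including C57BL/6, and its FPKM value shows a transcript, not a protein.

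Some libraries stood apart before any comparison. Relative depth was read from the commonest ratio between low values of each library and of WT-young tumor 1. It ran from 0.689 to 1.87 of the median library, and as few as 69 genes stood at that ratio. In each library 12074 to 13290 genes reached 1 FPKM. Xist, the transcript that coats an inactive X chromosome, reached 1 FPKM in 6 libraries labelled KO (1 tumor and both normal libraries in each heterozygous group) and stayed at 0.0719 FPKM or less elsewhere. The pancreatic transcript Ctrb1 was at 409 and 453 FPKM in 2 KO-labelled normal libraries and at 6.72 FPKM or less elsewhere.

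The tumor of the WT-old group did not share the levels of the others. It measured 107 FPKM for Lyz1, 2.1 for Defa24, 1.55 for Mmp7, 5.27 for Ang4, 1.19 for Itln1 and 7.16 for Pla2g2a. Among the 14 tumors it was the lowest in all 6. It is the only tumor of its group, so age and the single library cannot be told apart. It had a relative depth of 0.998 of the median library. Results that involve it are therefore given with and without it, and statements on 13 tumors leave it out.

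**Figure D1:**
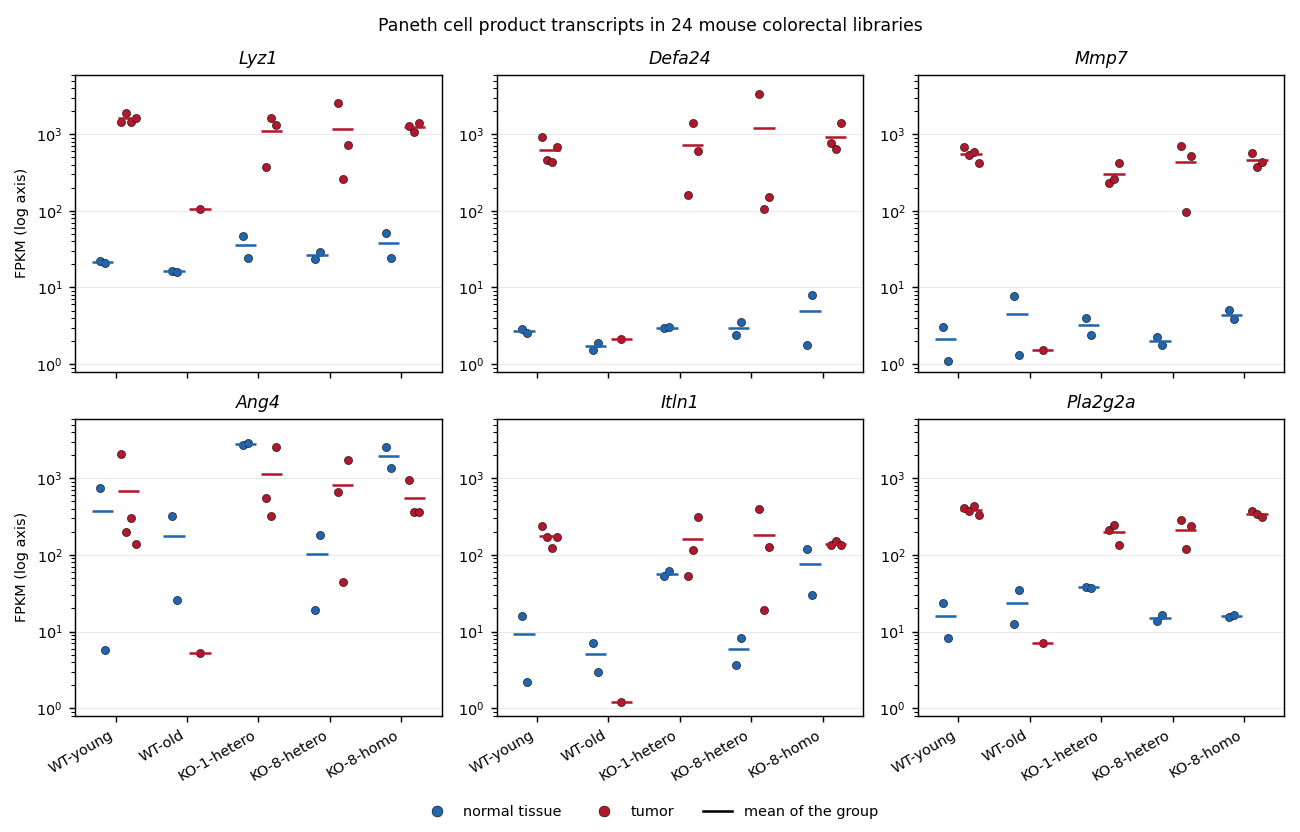
FPKM on a log axis of the 6 transcripts in each library, by title group, with normal tissue in blue, tumors in red and a bar at each group mean. Lyz1, Defa24, Mmp7 and Pla2g2a separate 13 tumors from all normal libraries, Ang4 does not, and the single WT-old tumor lies among or below the normal libraries for every transcript but Lyz1.

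Lyz1 was high in all tumors but WT-old, and even there above all normal tissue. In WT-young tumors it measured 1453, 1904, 1438 and 1641 FPKM, whereas KO-8-homo tumors gave 1265, 1068 and 1390.4 FPKM. KO-1-hetero tumors gave 373, 1614 and 1307 FPKM, and KO-8-hetero tumors 2519, 263 and 713 FPKM. WT-young and KO-8-homo tumors were tightly grouped and did not overlap each other, whereas each heterozygous group held both high and low tumors. In normal tissue Lyz1 ranged from 16.1 FPKM in a WT-old library to 51 FPKM in a KO-8-homo library, with a mean of 27.4 ± 12.1 (SD, n = 10). The 13 tumors averaged 1304 ± 609 FPKM (SD), a mean difference of 5.41 on the log2(FPKM + 1) scale, or 5.16 with the WT-old tumor. All 14 tumors exceeded all 10 normal libraries. In the WT-old tumor, however, Lyz1 was 8.14% of the Lyz2 level, within the 6.42% to 10.2% of normal tissue. Over all genes kept, 4.83% had all 13 tumors above all 10 normal libraries, and 3.83% had them all below. Because the choice of members rested on this contrast, nothing is read from the members' share against that figure. In bulk tissue, fewer cells of a type and less RNA per cell cannot be told apart.

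Defa24 was near the bottom of the scale in normal tissue and was the most abundant of the 6 transcripts in KO-8-hetero tumor 1. Normal tissue ranged from 1.55 to 7.97 FPKM, with a mean of 3.05 ± 1.84 (SD, n = 10). WT-young tumors measured 916, 456, 439.8 and 673 FPKM, whereas KO-8-homo tumors gave 757, 638 and 1388 FPKM. KO-1-hetero tumors gave 163, 1396 and 604 FPKM, and KO-8-hetero tumors 3343, 107 and 151 FPKM. All tumor groups but WT-old overlapped each other, and the highest and the lowest value of the 13 tumors, 31.1-fold apart, both came from KO-8-hetero. The 13 tumors exceeded all normal libraries, with a mean difference of 7.23 on the log2(FPKM + 1) scale, the largest of the 6 members. With the WT-old tumor, which lay within the normal range, the difference was 6.69.

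The rest of the alpha-defensin family, which the choice of members did not name, moved with Defa24. Of 28 other alpha-defensin symbols in the tables, 16 passed the filter and 3 were listed at 0 in every library. Their summed level was 45.3 to 2133 FPKM in the 13 tumors (median 202), 1.51 FPKM in the WT-old tumor and 1.2 to 3.46 FPKM in normal tissue. Between 5 and 20 of the symbols reached 1 FPKM in each of the 13 tumors, none did in the WT-old tumor, and at most 1 did in any normal library. The sums in tumors and normal tissue did not overlap once the WT-old tumor was left out. In limma fits over all genes with Benjamini-Hochberg adjustment, 14 of the 16 were higher in KO-labelled tumors than in KO-labelled normal tissue and 6 of 16 in the WT-labelled comparison, and none was lower. Over all genes kept, 47.2% were called with the KO label (24.1% higher, 23.2% lower) and 30.4% with the WT label (15.5% higher, 14.8% lower). Apart from Gm15284, none of the 16 reached 1 FPKM in any normal library, so they passed the filter through their tumor values. Some can also share reads with Defa24, and these counts are a description. The median log2 fold change of the 16 was 1.5 and 1.00, against 0.02 over all genes in both. The 14 fell to 5 without the 6 libraries with Xist at 1 FPKM or more, which leaves 2 normal libraries with the KO label. The WT count was 6 without the WT-old libraries too.

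With the KO label Gm15284 had the largest difference of these relatives, 6.20 on the log2(FPKM + 1) scale (SE 0.816), and 3.81 (SE 1.038) with the WT label. For Defa17, Defa22 and Defa5 the differences were 4.79, 4.76 and 4.72 with the KO label and 3.55, 3.73 and 4.06 with the WT label. Of the 16 symbols, 15 were highest in the same library, KO-8-hetero tumor 1, which was also the deepest, at 1.87 times the median library. The exception was Gm15284, highest in KO-8-homo tumor 3 at 1042 FPKM, against 633 FPKM in KO-8-hetero tumor 1. Gm15284 ran at 0.0681 to 0.0898 of the Defa24 level in the 4 WT-young tumors and at 0.12 to 0.751 in the 9 tumors labelled KO. These ranges did not overlap; the ratio was looked at after its values were seen, was not tested, and rests on reads that the near-identical pair can share.

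**Figure D2:**
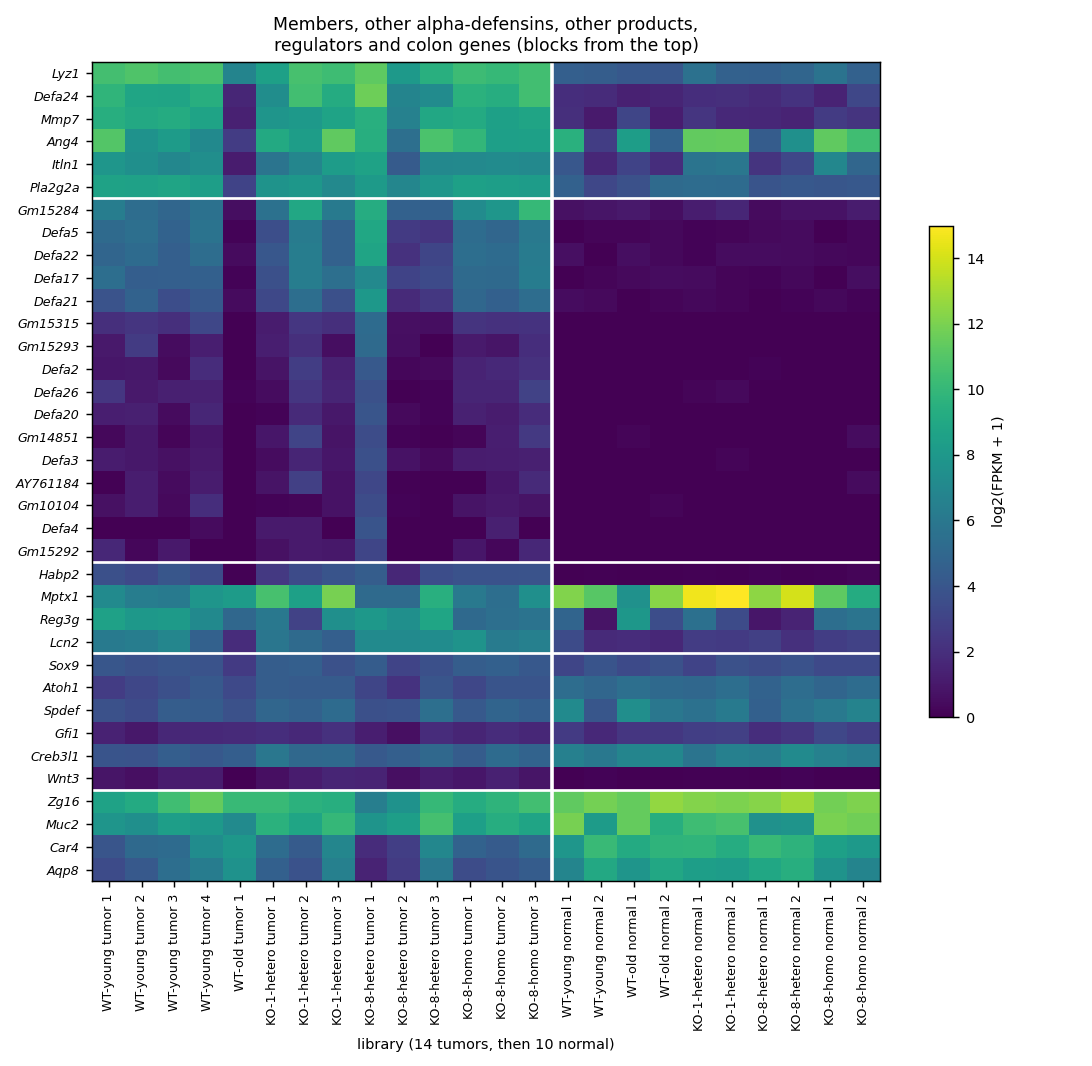
log2(FPKM + 1) of the 6 members, 16 other alpha-defensins, 4 other secreted products, 6 regulators and 4 colon genes (rows, in blocks) in 14 tumors and 10 normal libraries (columns). The alpha-defensin block is near 0 in all normal libraries and in the WT-old tumor and is brightest in KO-8-hetero tumor 1, where their summed level was 2133 FPKM.

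Mmp7, the protease that activates the defensins, was low in normal tissue, at 1.1 to 7.8 FPKM. It measured 674, 529, 589.6 and 415 FPKM in WT-young tumors. KO-8-homo tumors gave 573, 372 and 434 FPKM. KO-1-hetero tumors gave 229, 261 and 420.3 FPKM, and KO-8-hetero tumors 693, 96.5 and 516 FPKM. Neighbouring groups overlapped, with the lowest mean in KO-1-hetero, at 303 ± 103 FPKM (SD, n = 3), and the highest in WT-young, at 552 ± 109 FPKM (SD, n = 4). The 13 tumors all exceeded the normal libraries, with a mean log2 difference of 6.7, or 6.17 with the WT-old tumor, whose 1.55 FPKM lay within the normal range. Mmp7 varied less among the 13 tumors than its substrate Defa24, 7.18-fold against 31.1-fold between the highest and the lowest, and the ratio of Mmp7 to Defa24 ran from 0.187 to 3.42.

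The promoters of the members were read from RefSeq (GRCm38.p6), which held entries for Lyz1, Mmp7, Ang4 and Itln1 and none for Defa24 and Pla2g2a. CTTTGAT, a core motif of the Wnt effectors of the TCF family, was sought on both strands, where the reverse reads ATCAAAG. Of the 4 promoters only that of Mmp7, a known Wnt target, held it, on the opposite strand, 5 bases into the transcript. The motif occurred in 1225 of 32851 mouse promoters of the same length (3.73%), so the match is a description of these letters. The sequence is printed because Mmp7 was high in the 13 tumors that held the defensins. It spans chr9:7691840-7692119 on the plus strand, from 250 bases before to 30 bases after the start, with the motif in capitals.
Mmp7 promoter: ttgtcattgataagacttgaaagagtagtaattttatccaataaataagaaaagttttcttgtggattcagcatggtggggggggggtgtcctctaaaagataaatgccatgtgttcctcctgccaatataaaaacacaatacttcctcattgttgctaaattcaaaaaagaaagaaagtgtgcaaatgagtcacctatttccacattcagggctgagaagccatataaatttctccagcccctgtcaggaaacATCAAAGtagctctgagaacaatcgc

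Lyz1 and Lyz2 have promoters that are alike near the start. Over 282 aligned positions, 230 were identical (81.6%), 48 differed and 4 were gaps, and the last 80 bases were the same in both. They are printed with the differing bases in capitals, since the levels of the 2 genes parted in the tumors. The Lyz1 window is chr10:117292839-117293118 and the Lyz2 window chr10:117282243-117282522, both on the minus strand.
Lyz1 promoter: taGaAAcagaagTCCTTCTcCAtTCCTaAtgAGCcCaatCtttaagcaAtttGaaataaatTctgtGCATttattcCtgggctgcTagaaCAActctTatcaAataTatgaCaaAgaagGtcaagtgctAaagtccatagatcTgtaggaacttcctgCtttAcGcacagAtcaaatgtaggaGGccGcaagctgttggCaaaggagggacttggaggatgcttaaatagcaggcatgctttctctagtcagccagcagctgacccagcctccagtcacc
Lyz2 promoter: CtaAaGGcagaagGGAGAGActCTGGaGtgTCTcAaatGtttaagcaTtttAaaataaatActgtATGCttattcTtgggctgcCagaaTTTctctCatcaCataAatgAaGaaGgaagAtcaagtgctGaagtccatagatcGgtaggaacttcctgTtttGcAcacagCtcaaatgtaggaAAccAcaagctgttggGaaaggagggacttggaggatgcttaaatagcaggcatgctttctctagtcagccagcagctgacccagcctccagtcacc

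Lyz1 and Lyz2 kept a fixed proportion in normal tissue and lost it in tumors. In the 10 normal libraries Lyz1 was 6.42% to 10.2% of the Lyz2 level (median 8.69%), and in the WT-old tumor 8.14%. In the 13 other tumors it was 60.2% to 874% (median 205%), with no overlap. The highest proportion was that of a WT-young tumor, at 874%. The other WT-young tumors gave 428%, 734% and 516%, and KO-8-hetero tumor 1 gave 636%. Across the 10 normal libraries log2 Lyz1 and Lyz2 had a Pearson r of 0.91, and across the 13 tumors -0.10. These are descriptions over libraries that share the reads of near-identical transcripts. How far Lyz1 values in normal tissue and in the WT-old tumor reflect reads from Lyz2 was not tested.

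**Figure D3:**
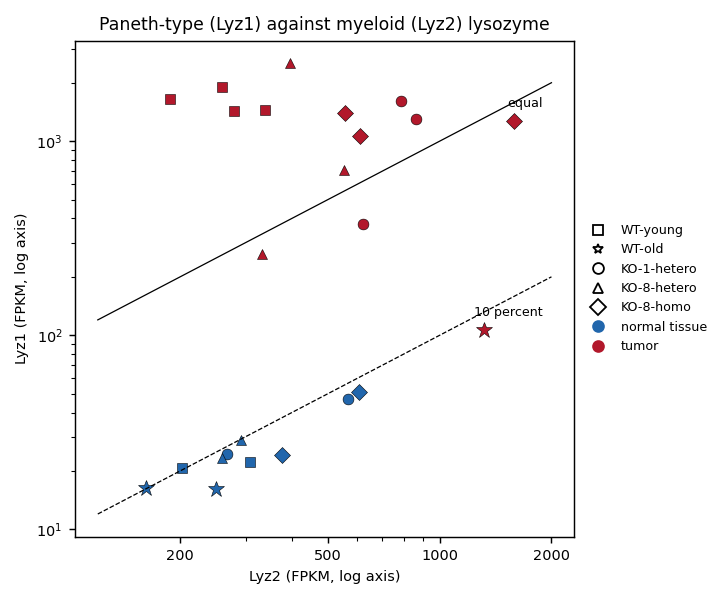
Lyz1 against Lyz2, in FPKM on log axes, with 1 symbol shape per title group, tumors in red and normal tissue in blue. The normal libraries and the WT-old tumor lie along the dashed line where Lyz1 is 10% of Lyz2, and the 13 other tumors lie at 60.2% or more.

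Lyz2 itself stood higher in some KO-labelled tumors. KO-8-homo tumors measured 1589, 609 and 555 FPKM. KO-1-hetero tumors gave 620.1, 786 and 863 FPKM, against 396, 332 and 552 FPKM for KO-8-hetero. WT-young tumors gave 339, 259, 279 and 188 FPKM. Only the KO-8-hetero range overlapped that of WT-young. The log2 fold change against WT-young was 1.52 for KO-1-hetero (SE 0.350, limma adjusted p 0.0323) and 1.64 for KO-8-homo (limma adjusted p 0.0467). Both calls depended on single libraries: the first was lost without any of 6 of the 7 libraries, with adjusted p up to 0.127, and the second without any of the 7, with adjusted p up to 0.314. For KO-8-hetero it was 0.68 (limma adjusted p 0.707). None of 10 macrophage markers was called in KO-1-hetero or KO-8-homo against WT-young tumors. Over all genes 2.88% and 0.457% were called there, so 0 of 10 is near those shares. The summed level of 10 of 10 listed markers reached 629 to 926 FPKM in KO-1-hetero and 353 to 500.5 FPKM in WT-young tumors. KO-8-homo tumors lay between, at 507 to 751 FPKM, and KO-8-hetero tumors at 373 to 581 FPKM. Their part in the Lyz2 difference was not tested.

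Pla2g2a had the narrowest range of the 6 over the 13 tumors, though not in normal tissue. WT-young tumors measured 403, 376, 429 and 333 FPKM, and KO-8-homo tumors 369, 337 and 311 FPKM. KO-1-hetero tumors gave 208, 246 and 134 FPKM, and KO-8-hetero tumors 282, 119 and 237 FPKM. Every heterozygous tumor lay below every WT-young and every KO-8-homo tumor, while the latter pair of groups overlapped. Normal tissue ranged from 8.17 to 38.5 FPKM, and the 13 tumors were 3.6-fold apart at most and all above the normal libraries. The mean log2 difference of tumors from normal tissue was 3.75, or 3.39 with the WT-old tumor, whose 7.16 FPKM was below every normal library.

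Itln1 was an intermediate case. It measured 237, 173, 124 and 172 FPKM in WT-young tumors, while KO-8-homo tumors gave 133, 150.5 and 133 FPKM. KO-1-hetero tumors gave 53.7, 115 and 314 FPKM, and KO-8-hetero tumors 397, 18.9 and 128 FPKM. Tumor groups overlapped, and 10 of the 13 tumors exceeded every normal library. Normal tissue was itself wide, from 2.2 FPKM in a WT-young library to 121 FPKM in a KO-8-homo library, 55.1-fold apart. The mean log2 difference of tumors from normal tissue was 3.10, or 2.67 with the WT-old tumor at 1.19 FPKM.

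Ang4 did not separate tumors from normal tissue. Tumors ranged from 44.2 to 2591 FPKM without WT-old, and normal tissue from 5.66 to 2859 FPKM. WT-young tumors measured 2050.4, 199, 301 and 139 FPKM, and their normal libraries 748 and 5.66 FPKM. KO-1-hetero tumors gave 548, 319 and 2591 FPKM, below their normal libraries at 2737 and 2859 FPKM. In KO-8-homo the 3 tumors, at 958, 358 and 365 FPKM, lay below both normal libraries, at 2556 and 1371 FPKM. In KO-8-hetero tumors gave 664, 44.2 and 1707 FPKM, and normal libraries 19.3 and 184 FPKM. The 2 highest libraries of all were normal, and none of the tumors exceeded all normal libraries. The mean log2 difference of tumors from normal tissue was 0.68, or 0.24 with the WT-old tumor. By these values Ang4 was not a transcript that set tumors apart.

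Among normal libraries Ang4 and Itln1 varied with Retnlb and less closely with Hoxb13, both singled out after their values were seen. Hoxb13, a homeobox gene known from the distal colon, ranged from 6.63 to 697 FPKM in normal tissue. In order of rising Hoxb13, Ang4 measured 2556, 324, 1371, 748, 2737, 2859, 25.8, 19.3, 5.66 and 184 FPKM. Retnlb, a goblet cell product, measured 3741, 529.7, 1369.8, 845, 1419, 1583, 3.74, 4.75, 4.98 and 12.1 FPKM in the same order. Both were low in the 4 libraries with the most Hoxb13, and Itln1 was there at 2.2 to 8.11 FPKM. Across the 10 normal libraries the Pearson r of log2 values was 0.93 between Ang4 and Itln1, 0.94 between Ang4 and Retnlb and 0.90 between Itln1 and Retnlb. Against Hoxb13 it was -0.56 for Ang4, -0.50 for Itln1 and -0.85 for Mmp7. Ang4 was highest at mid-range Hoxb13, in the KO-1-hetero libraries at 183 and 191 FPKM of Hoxb13. The groups were not alike in this respect: both KO-8-homo normal libraries had low Hoxb13, at 6.63 and 20.7 FPKM, and both KO-8-hetero libraries high Hoxb13, at 392 and 697 FPKM. WT-young and WT-old each held 1 library of either kind. The part of the position along the colon in the Ang4 and Itln1 values was not tested.

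**Figure D4:**
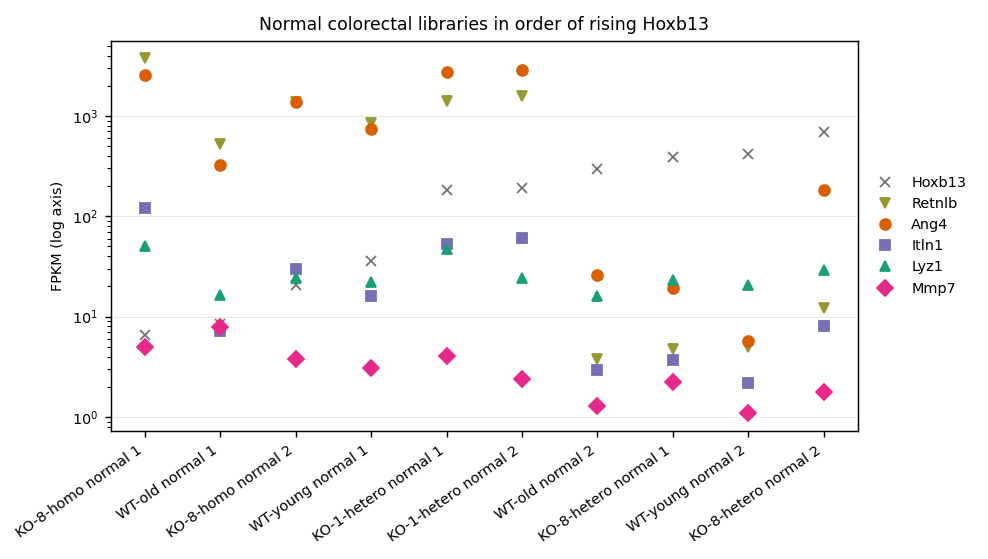
FPKM on a log axis of 4 members, Retnlb and Hoxb13 in the 10 normal libraries, ordered from left to right by rising Hoxb13. Ang4 is at 324 FPKM or more in the first 6 libraries and at 184 FPKM or less in the last 4, as Retnlb falls from 529.7 FPKM or more to 12.1 FPKM or less.

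Among tumors the members varied together in part. Over the 13 tumors the Pearson r of log2 values was 0.85 between Lyz1 and Defa24, 0.87 between Lyz1 and Itln1, 0.86 between Mmp7 and Itln1 and 0.72 between Mmp7 and Pla2g2a. For Ang4 it was 0.28 to Lyz1, 0.23 to Defa24 and 0.10 to Pla2g2a, but 0.62 to Mmp7 and 0.63 to Itln1. The 15 pairs ran from 0.10 to 0.87 over the 13 tumors and from 0.65 to 0.96 with the WT-old tumor added. In normal tissue the 4 pairs named first had an r of 0.08, 0.75, 0.54 and -0.04, and Lyz1 and Ang4 one of 0.58. All of these are descriptions over libraries of mixed genotype.

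The order of the tumors differed between members, apart from the lowest. KO-8-hetero tumor 2 was the lowest of the 13 in all 6 transcripts, and its neutrophil marker S100a8 was the highest of all libraries, at 841 FPKM. KO-8-hetero tumor 1 was the highest in Lyz1, Defa24, Mmp7 and Itln1, but the 5th in Ang4 and the 8th in Pla2g2a. KO-1-hetero tumor 3 was the highest in Ang4 and the 12th of 13 in Pla2g2a. The 6 members together made up 1.75% of all FPKM in KO-8-hetero tumor 1, 0.113% in KO-8-hetero tumor 2 and 0.0242% in the WT-old tumor. The spread within KO-8-hetero, as the SD of log2 values, was 2.73 for Defa24, 2.72 for Ang4 and 2.18 for Itln1, against a median of 0.263 over all genes kept. In WT-young it was 0.501 for Defa24, 0.378 for Itln1 and 1.73 for Ang4, against a median of 0.166. The summed level of the listed neutrophil markers was 1779 FPKM in KO-8-hetero tumor 2. It was 1587 FPKM in KO-8-homo tumor 1, which ranked 4th to 9th of the 13 in the members. In the WT-old tumor it was 18.2 FPKM, the lowest of all tumors. Whether the neutrophil content had a part in the low values of KO-8-hetero tumor 2 was not tested.

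Genes whose log2 values were most like each member over the 14 tumors were listed as a description. For Defa24 the closest was another alpha-defensin, Defa17, with an r of 0.98 over 14 and 0.97 over 13 tumors. Most stretches of the Defa17 transcript (92.0%) also occur in other genes. For Itln1 it was Habp2, which encodes a serine protease that binds hyaluronan, with 0.96 and 0.90. For Lyz1 it was Gm14207, with 0.96 and 0.94. For Mmp7 and Pla2g2a it was Pak1, a kinase downstream of Rac, with 0.97 and 0.96 over 14 tumors but 0.86 and 0.84 over 13. For Ang4 it was 4930461G14Rik, with 0.90 and 0.78. All of these values were lower without the WT-old tumor.

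Genotype was compared in tumors to ask whether the c-MAF label went with these transcripts, a contrast that the choice of members did not use. None of the 6 members passed an adjusted p of 0.05 in limma (Benjamini-Hochberg over 13799 genes) in any of 7 comparisons. The share of all genes called was 2.88% in KO-1-hetero against WT-young tumors, 0.00725% for KO-8-hetero and 0.457% for KO-8-homo (0.058% higher, 0.399% lower) against the same tumors. It was 0.0507% in KO-8-homo against KO-8-hetero tumors, 0.0% in KO-1-hetero against KO-8-hetero tumors, 0.00725% in all tumors by label and 0.0% in normal tissue by label. The 2 comparisons with no gene called had 1363 and 645 genes (9.88% and 4.67%) with an unadjusted limma p under 0.05. If no gene differed, a share of about 0.05 would lie there. The first 3 comparisons share the WT-young tumors.

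Pla2g2a came closest to a difference. Its log2 fold change was -1.01 in KO-1-hetero against WT-young tumors (SE 0.349, 95% interval -1.75 to -0.27), with an unadjusted limma p of 0.0101 and an adjusted p of 0.124. In KO-8-hetero it was -0.94 (SE 0.349, 95% interval -1.68 to -0.20), with an unadjusted p of 0.0155 and an adjusted limma p of 0.705. All 3 tumors of each heterozygous group lay below all 4 WT-young tumors. The adjusted p over the alternatives ranged from 0.0366 to 0.391 in the first and from 0.141 to 0.999 in the second. In KO-8-homo the log2 fold change was -0.18, with an interval of -0.92 to 0.55. Directly compared, KO-8-homo was 0.76 above KO-8-hetero (interval -0.03 to 1.54, adjusted limma p 0.87).

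Lyz1 had log2 fold changes against WT-young tumors of -0.79 for the 3 KO-1-hetero tumors, -1.04 for the KO-8-hetero tumors and -0.37 for the KO-8-homo tumors, the order kept below. The 95% intervals ran from -1.98 to 0.40, from -2.22 to 0.15 and from -1.56 to 0.81. Defa24 gave -0.20, -0.64 and 0.56, and Mmp7 -0.89, -0.74 and -0.26. Itln1 gave -0.46, -0.78 and -0.31. Ang4 gave 1.09, 0.04 and 0.47, with an interval of -2.06 to 4.23 for the first. The median of the 6 was -0.62, -0.76 and -0.22, against -0.02, -0.01 and 0.00 over all genes, and 1, 1 and 2 of the 6 were above 0.

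In KO-8-homo against KO-8-hetero tumors the 6 log2 fold changes were 0.43 to 1.20, all above 0, and none passed the threshold. Leaving out KO-8-hetero tumor 1, the library with the highest Defa24, brought that gene past it, at 2.77 on the log2 scale (adjusted p 0.0358 by limma). That fit rests on the 2 tumors of the group with the lowest Defa24. KO-8-hetero tumor 2 was the lowest of the 13 tumors in all 6 members. Other omissions of single libraries took the log2 fold changes of Lyz1, Mmp7, Ang4 and Itln1 below 0, with the ranges given in the last section.

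When all tumors were set against each other by label, the sign depended on the WT-old tumor. All 6 log2 fold changes were above 0 with it, at 0.04 for Lyz1, 1.42 for Defa24, 0.92 for Mmp7, 1.70 for Ang4, 0.74 for Itln1 and 0.40 for Pla2g2a. Without the WT-old libraries 5 of the 6 were below 0, at -0.73 for Lyz1, -0.09 for Defa24, -0.63 for Mmp7, -0.52 for Itln1 and -0.71 for Pla2g2a, and Ang4 was 0.53. None passed the threshold either way.

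Ang4 averaged 1621 ± 1292 FPKM (SD, n = 6) over KO-labelled normal libraries, against 276 ± 347 FPKM (SD, n = 4) over WT-labelled ones. The log2 fold change of 3.08 (SE 1.541, 95% interval -0.11 to 6.26) had an unadjusted limma p of 0.0577 and an adjusted p of 1. Itln1 gave 2.14 (SE 1.085, unadjusted limma p 0.061, adjusted p 1). Both ranges overlapped between labels. Hoxb13 was unbalanced between title groups, as given above, but each label held low and high libraries. It ran from 6.63 to 697 FPKM with the KO label and from 8.41 to 416 FPKM with the WT label. Xist ran from 7.38 to 30.3 FPKM in the normal libraries of both heterozygous groups. It stayed at 0.0719 FPKM or less in the KO-8-homo and WT-labelled ones, so it was unbalanced between labels. The part of what Hoxb13 and Xist mark in these differences was not tested. The other 4 members differed by 0.16 to 0.73.

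**Figure D5:**
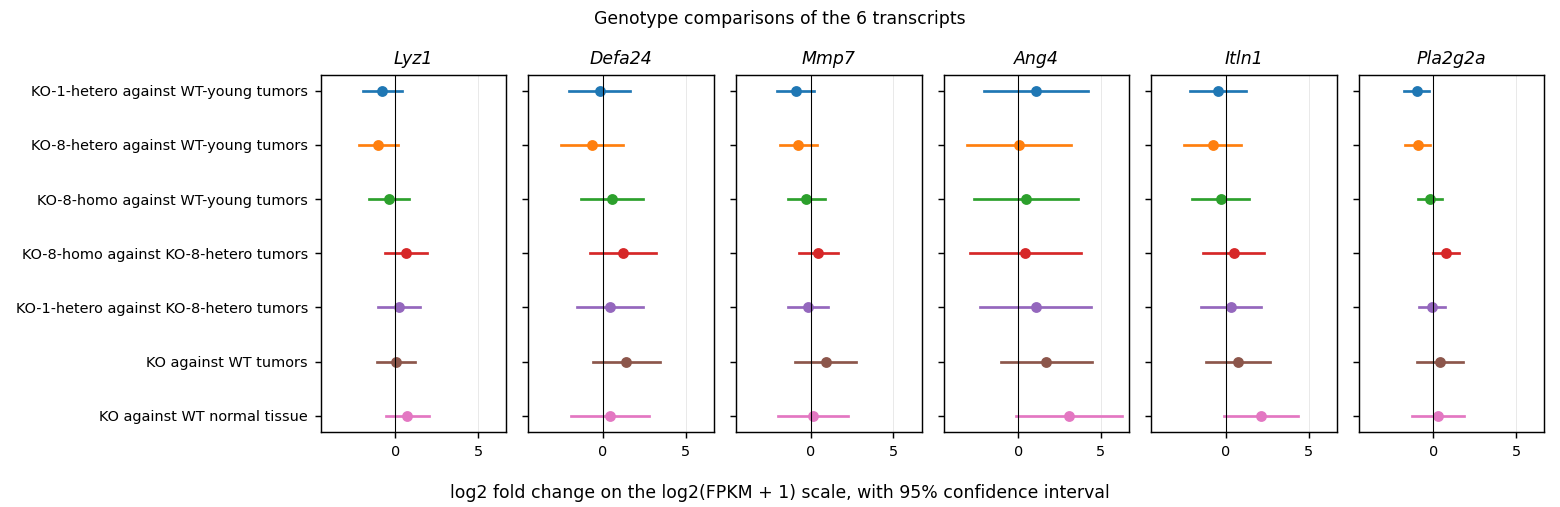
log2 fold changes with 95% confidence intervals (limma) of the 6 members in 7 genotype comparisons, 1 per row. All intervals cross 0 but those of Pla2g2a in KO-1-hetero, -1.75 to -0.27, and KO-8-hetero, -1.68 to -0.20, against WT-young tumors.

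Counts of listed genes called in tumors against normal tissue are to be read against the shares over all genes, 47.2% with the KO label (24.1% higher, 23.2% lower) and 30.4% with the WT label (15.5% higher, 14.8% lower). Genes under 1 FPKM in all normal tissue, such as Habp2 and Wnt3, passed the filter through tumors, and their differences are descriptions. Of 15 other granule and secreted products tested, 5 were higher and 3 lower in KO-labelled tumors than in normal tissue, and 6 and 1 with the WT label, with medians of 0.07 and 0.70, against 0.02 over all genes. With the KO label the share called in either direction was near that over all genes. Habp2 differed by 3.33 and 2.85 on the log2 scale, from 0.0169 to 0.161 FPKM in normal tissue to 2.22 to 20.4 FPKM in the 13 tumors, while the WT-old tumor had 0.0433 FPKM. Lcn2, an iron-chelating antibacterial protein, rose by 3.80 and 3.01, and the cytokine gene Tnf by 2.09 and 2.28. The pentraxin genes Mptx1 and Mptx2, both on this list, were singled out after their values were seen. Mptx2 was low, at 0.0523 to 9.55 FPKM in tumors and at most 2.08 FPKM in normal tissue. Mptx1 measured 191 to 31604 FPKM in normal tissue, so its level there does not mark Paneth cells. It fell by 5.02 with the KO label (limma adjusted p 0.000661) and by 3.67 with the WT label (limma adjusted p 0.0434). The first call was lost without the 6 high-Xist libraries (adjusted p 0.0727), and the second in 9 other fits.

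Transcription factors on the list for Paneth and secretory cells were called in both directions. Of 14, 3 were higher and 6 lower with the KO label, and 1 and 7 with the WT label, or 1 and 3 without the WT-old libraries. Atoh1, the switch to the secretory lineage, fell by 1.43 and 1.82 in log2 fold change, and Creb3l1, a secretory-pathway factor, by 1.51 and 2.40. Tcf4, which encodes an E protein and is not the Wnt effector gene Tcf7l2, rose by 1.51 and 1.61. Sox9, needed for Paneth cells, was singled out after its values were seen: it rose by 0.65 with the KO label (limma adjusted p 0.0257) and measured 0.10 with the WT label (adjusted p 0.828). The Sox9 call was lost without the high-Xist libraries, without the 2 normal libraries rich in the pancreatic transcript Ctrb1, and without KO-1-hetero normal 1. The difference between labels was not tested.

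Of 13 niche and surface genes, 6 were higher and 4 lower with the KO label, and 3 and 4 with the WT label. The Wnt ligand gene Wnt3, which Paneth cells express, differed by 1.00 and 0.71, and stayed at 1.9 FPKM or less in every tumor. The receptor gene Fgfr3 fell by 1.43 and 1.65. Among 15 secretory pathway and autophagy genes, 3 were higher and 6 lower with the KO label, and 1 and 3 with the WT label. Agr2, a protein disulfide isomerase of mucus-producing cells, fell by 1.65 and 1.89, and its call was lost under quantile normalization with the KO label (adjusted p 0.0974) and without the WT-old libraries with the WT label (adjusted p 0.0608).

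Of 12 close relatives of the members, 5 were higher and 3 lower with either label. Mmp10, a stromelysin gene, rose by 4.84 and 4.40. Ang, the angiogenin gene (coding sequence 84.9% identical to that of Ang4), fell by 1.37 and 1.68. Lyz2 differed by 0.77 with the KO label (adjusted limma p 0.0768) and by 0.68 with the WT label (adjusted p 0.254). The first passed the threshold in 5 other fits that left out libraries or changed the scaling or samples fitted.

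Markers of other cell types were read in the same libraries. Of 7 small intestinal enterocyte markers tested, 1 was higher and 3 lower with the KO label and 0 and 4 with the WT label. Their summed level was 31.3 to 201 FPKM in tumors and 113 to 1157 FPKM in normal tissue. Most of the sum was Fabp2, a fatty acid binding protein gene, at 32 to 1017 FPKM in normal tissue and 3.09 to 164 FPKM in tumors. Of the 12 listed, 5 did not pass the filter, among them Apoa4, Sis and Lct, at no more than 1.02, 6.57 and 0.0803 FPKM in any library. Fabp2, Apoa4, Sis and Lct were singled out after their values were seen. Goblet cell markers were lower in 6 of 11 with the KO label and in 4 with the WT label, or 1 without the WT-old libraries, and none was higher. Zg16, a goblet cell lectin, fell by 3.04 with the KO label. Colon epithelium markers were lower in 6 of 10 and 7 of 10, among them Car4, a carbonic anhydrase of surface colonocytes, which fell by 4.55 and 3.33.

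Of 10 neutrophil markers 8 passed the filter, some through tumor values alone (Cxcr2, Mmp8 and Trem1 reached at most 0.193, 0.195 and 0.201 FPKM in normal tissue), so no count of calls is given. S100a8 rose by 4.86 with the KO label and 4.70 with the WT label. Macrophage markers were higher in 8 of 10 and 7 of 10, but in 2 of 10 without the high-Xist libraries and in 1 of 10 without the WT-old libraries. The summed neutrophil level was 68.2 to 1779 FPKM in the 13 tumors, 18.2 FPKM in the WT-old tumor and 3.01 to 34 FPKM in normal tissue. The lists and the members were also read in single tumors. The macrophage sum was the highest of all libraries in the WT-old tumor, at 932 FPKM, where all 6 members were lowest among tumors. KO-1-hetero tumor 3 came next, at 926 FPKM, and ranked 1st to 12th of the 13 in the members. The neutrophil sum was the highest in KO-8-hetero tumor 2, the lowest of the 13 others in all 6. KO-8-homo tumor 1 came next, at 1587 FPKM, and ranked 4th to 9th. Among all 14 tumors that sum was the lowest in the WT-old tumor. The part of these cells in the members' levels was not tested.

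In the genotype comparisons none of the 16 other alpha-defensins was called in any of the 7. Over all genes 0.0% to 2.88% were called there, so 0 of 16 is near that share. Among the other listed genes, Creb3l1 was higher and Mmp13, a collagenase gene, lower in KO-1-hetero than in WT-young tumors, with log2 fold changes of 1.28 (limma adjusted p 0.0311) and -2.76 (limma adjusted p 0.0285). Both calls were lost in most fits that left out 1 library. Irgm1, an immunity-related GTPase gene tied to autophagy and Paneth cell granules, was lower in KO-8-homo than in WT-young tumors, by -1.87 (limma adjusted p 0.0019). Against KO-8-hetero tumors it was -1.73 (limma adjusted p 0.017). The second call was lost in 6 other fits: without KO-8-hetero tumor 3, without each KO-8-homo tumor, without the high-Xist libraries and with only the groups compared (adjusted p 0.152).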

How the data were processed

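RNA from colorectal tumors and normal tissue was measured by stranded TruSeq mRNA sequencing after miRNeasy extraction, per the labels' protocols. The authors deposited 1 table of FPKM values per library, made with TopHat2 2.1.1, Bowtie2 2.2.8, SAMtools 0.1.18 and Cuffdiff 2.2.1 on mm10, per the submitters' processing notes. The annotation, strand setting and scaling between libraries are not given in the sources used here. Groups came from the titles. Absolute depth is unknown, and relative depth was 0.689 to 1.87 of the median library.

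Genes with at least 1 FPKM in at least 4 libraries were kept, and log2(FPKM + 1) was fitted with limma 3.58.1 (R 4.3.3; lmFit, contrasts.fit and eBayes with trend), two-sided, with Benjamini-Hochberg adjustment over all genes kept and a threshold of 0.05. Fold changes are on this scale, which understates changes of low genes. A model of the title groups by tissue gave comparisons of single groups, and a model of label by tissue gave KO against WT and tumor against normal tissue. Because the labels do not tie samples to animals, p-values measure only the spread between these samples, which may be technical. The procedure was tested on simulated data.

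The members and gene lists were chosen with earlier results of these data known. Named were all members, Lyz2, Ang, other alpha-defensins, Maf, up to 3 genes per other list and comparison by p among those past the threshold (the smallest p where none passed), and the 3 genes most correlated with each member over 14 tumors; others are said to be chosen after their values were seen. Alternatives were a pseudocount of 0.1, no filter, a filter at 5 FPKM, quantile normalization, no intensity trend, only the groups compared, the replicate number as a block, leaving out libraries by group, Xist or Ctrb1, and leaving out each replicate; the Ctrb1 alternative was chosen after seeing the data. Same-numbered tumor and normal libraries of a group had correlations of deviations of -0.159 to 0.355 over 8 pairs, with 1 over 0.1, so the numbers were not taken to pair samples. Sequences were read with Python 3.11.15, pandas 2.3.3 and numpy 2.4.6 from GENCODE M21 and RefSeq (GRCm38.p6), and figures were drawn with matplotlib 3.10.9.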

Additional observations from a re-analysis of the deposited data

Results flagged for a closer look

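In the 5 tumors with the WT label, 1 library lay far below the rest for 5 of the 6 transcripts. It was in each case the WT-old tumor, with 107.0 FPKM of Lyz1 (others 1438 to 1904), 2.1 FPKM of Defa24 (others 439.8 to 916) and 1.55 FPKM of Mmp7 (others 415 to 674). Itln1 measured 1.19 FPKM (others 124 to 237) and Pla2g2a 7.16 FPKM (others 333 to 429). The test was run on log2(FPKM + 1), not on the FPKM printed. There the gap to the nearest tumor was 0.902, 0.871, 0.913, 0.863 and 0.936 of the range in that order. Each was above Dixon's critical value of 0.71 for 5 samples. Of 30 sets of a member and a group tested, 5 passed, all through this library. Chance passes about 1 in 20 independent sets. These sets share libraries and transcripts that varied together, so the 5 are not set against that rate. The library is also the only one of the 5 with the WT-old title.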

How the results depend on the processing

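No member was called in any of the 7 genotype comparisons with the replicate block, which gave 230 called genes against 397 in KO-1-hetero and 42 against 63 in KO-8-homo against WT-young tumors. It turned Ang4 in KO-8-hetero against WT-young to -0.42. With only the groups compared, 1 member was called in KO-1-hetero against WT-young (Pla2g2a, adjusted p 0.0366). Leaving out single libraries gave 0 to 1 members called in KO-8-homo against KO-8-hetero. Listed genes other than members called in tumors against normal tissue numbered 101 with the KO label (66 without the high-Xist libraries, 92 to 103 without single libraries) and 71 with the WT label (46 without the WT-old libraries, 50 to 75 without single libraries). Without the high-Xist libraries Defa24 was 0.02 and Ang4 -1.06 in KO-8-hetero against WT-young; KO-1-hetero against KO-8-hetero gave Lyz1 -0.07, Defa24 -0.33, Itln1 -0.16 and Pla2g2a 0.30; Pla2g2a in normal tissue was -0.11. Without the WT-old libraries KO against WT tumors gave Lyz1 -0.73, Defa24 -0.09, Mmp7 -0.63, Itln1 -0.52 and Pla2g2a -0.71. The cause was not tested.

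Leaving out single libraries turned the sign of some log2 fold changes. Ranges were, in KO-1-hetero against WT-young, -0.91 to 0.63 (Defa24) and -1.12 to 0.14 (Itln1), and in KO-8-hetero against WT-young -2.21 to 0.26 (Defa24), -1.28 to 0.14 (Mmp7), -1.06 to 1.56 (Ang4) and -1.77 to 0.39 (Itln1). KO-8-homo against KO-8-hetero gave -0.12 to 1.51 (Lyz1), -0.40 to 1.01 (Mmp7), -1.09 to 1.53 (Ang4) and -0.70 to 1.46 (Itln1). KO-1-hetero against KO-8-hetero gave -0.54 to 1.09 (Lyz1), -0.46 to 2.01 (Defa24), -1.03 to 0.39 (Mmp7), -0.47 to 2.15 (Ang4), -0.85 to 1.31 (Itln1) and -0.44 to 0.18 (Pla2g2a). KO against WT tumors gave -0.73 to 0.30 (Lyz1), -0.09 to 1.96 (Defa24), -0.63 to 1.38 (Mmp7), -0.52 to 1.17 (Itln1) and -0.71 to 0.72 (Pla2g2a), and normal tissue -0.10 to 0.59 (Mmp7) and -0.06 to 0.59 (Pla2g2a). Genes called over all in KO-1-hetero against WT-young ranged from 15 to 349 without single libraries, against 397.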
